A study of Rattus norvegicus with 8 samples.

Results

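The transcripts of the mitochondrial ribosomal proteins were followed in thigh skeletal muscle of rats fed compound 177, a sulfonyl isoxazoline. Members were all probes whose platform gene symbol begins with Mrpl, the prefix of the large subunit, or Mrps, the prefix of the small subunit. These were 62 of the 22523 probes on the array, 39 with the Mrpl prefix and 23 with the Mrps prefix, and each gene had 1 probe. The samples were 8 Wistar Han rats measured on Illumina bead arrays, 1 array per rat. Of these, 4 control rats ate standard chow and 4 rats ate chow with compound 177 at 150 ppm for 28 days, and the sources used here name no genetic alteration in either group and give no age or sex. Arrays were taken as separate animals on the strength of the series design, which counts 4 animals in each arm, and their number limits the precision of every value. The series title names mitochondrial toxicity in muscle as the question.

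Mitochondrial ribosomes translate the few respiratory-chain proteins that mitochondrial DNA encodes. Their RNAs come from mitochondrial DNA, whereas all of their proteins are encoded in the nucleus, made in the cytosol and imported. Skeletal muscle needs this ribosome to build complexes I, III, IV and V, and defects in it cause disorders of oxidative phosphorylation in humans. In mammalian structures the proteins of Mrps18a and Mrps30 sit in the large subunit despite their symbols. Here both were kept with the Mrps prefix, as the symbols have them.

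In total RNA of a whole muscle, fewer cells of a type and less RNA per cell cannot be told apart. Levels are given as background-corrected, quantile-normalized log2 intensities of a probe. Differences are compound 177 minus control on that log2 scale, with n = 4 rats per group, and levels of different probes are not compared. Median deposited intensity per array ran from 97.5 to 124.7, between 9261 and 10620 probes per array had a detection p below 0.05, and arrays correlated pairwise at 0.965 to 0.991 over tested probes. Of 12 defining skeletal muscle markers, 12 were tested and 4 lay above control, with a median difference of -0.01. The summed linear signal of these markers was 431708 to 481143 in control and 423792 to 466272 in treated muscle, so the labelled tissue carried its markers in both groups. The authors' normalized table showed 2 sets of arrays with identical sorted values. Set 1 held replicates 1 and 2 of both groups, and set 2 held replicates 3 and 4.

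Nearly all members were expressed. A total of 60 members had a detection p below 0.05 on all 8 arrays and were tested, 38 with the Mrpl and 22 with the Mrps prefix. A filter on low signal therefore kept no member through 1 group alone. Mrpl30 was detected on 2 arrays and Mrps31 on 0, and both were left untested. Mrpl30 read 5.13 to 5.32 in control and 5.35 to 5.64 in treated muscle, near background throughout, and Mrps31 read 4.76 to 4.86 and 4.79 to 4.97.

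Most members lay slightly above control in treated muscle, and no single member passed the test. Among 38 Mrpl members the treated mean exceeded control in 36, and the median difference was 0.16, a 1.12-fold level. Among 22 Mrps members it did so in 19, and the median was 0.15, or 1.11-fold. Over all 10212 tested probes 53.4% were above control, with a median of 0.01. By limma with Benjamini-Hochberg adjustment over all tested probes, 0 of 60 members had an adjusted p below 0.05, as did 0% of all probes, and the adjusted p of every member was 0.9999. At an unadjusted p below 0.05 there were 2 members above control, Mrpl42 and Mrps18c, or 3.33% against 2.26% of all tested probes. There was 1 member below control, Mrpl18, or 1.67% against 1.62% of all tested probes. Those shares lie close to the background. With the replicate number as a block, 4 members had such a p above control, namely Mrpl42, Mrpl49, Mrpl17 and Mrps18c. That was 6.67% of members against 3.55% of all probes, and again 0 members passed after adjustment, the smallest adjusted p being 0.745. The median half-width of the 95% confidence interval was 0.29 for a tested member, a 1.22-fold change, which is wider than the medians above. That width is the precision of a single member and does not measure that of a median over members.

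**Figure D1:**
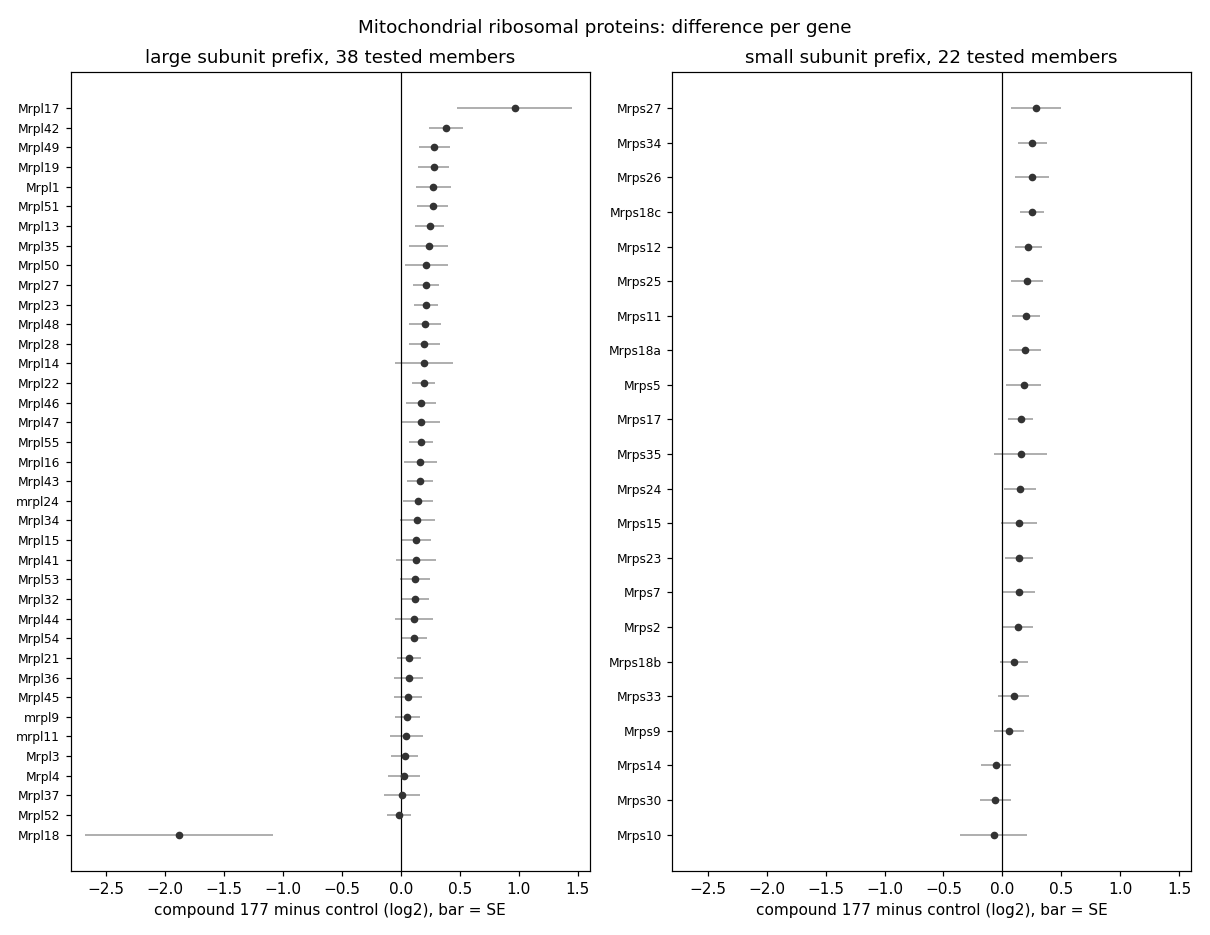
Difference of each of the 60 tested members, compound 177 minus control in log2 units on the horizontal axis, with the standard error as a bar (n = 4 rats per group), for the Mrpl prefix on the left and the Mrps prefix on the right. Most points lie a little above 0, whereas Mrpl18 lies at -1.88 and Mrpl17 at 0.97 with wide bars.

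Apart from Mrpl18 the differences were narrow. The other 37 Mrpl members ran from -0.02 to 0.97, with 34 Mrpl members between 0 and 0.3. The Mrps members ran from -0.08 to 0.29, and 19 lay between 0 and 0.3. The standard error of a difference had a median of 0.13 in both subunits.

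**Figure D2:**
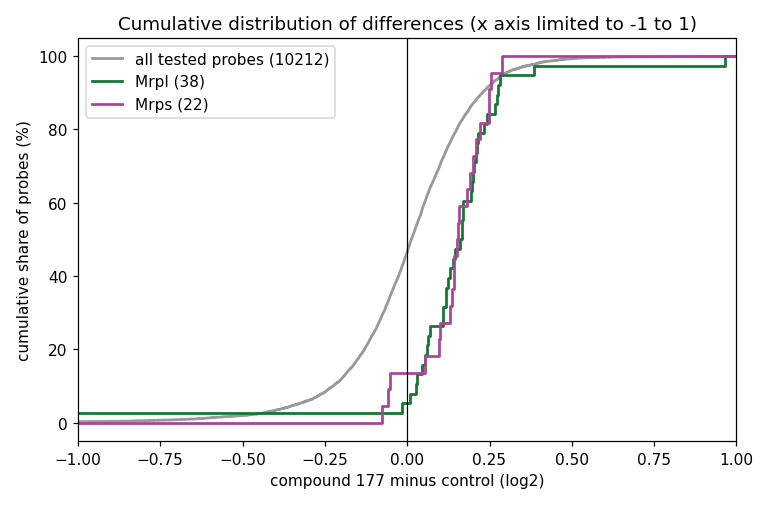
Cumulative share of probes in percent against the difference in log2 units, for all 10212 tested probes, 38 Mrpl members and 22 Mrps members. The axis runs from -1 to 1 and leaves out Mrpl18, and the middle of both subunit curves lies to the right of that of all probes, with medians of 0.16 and 0.15 against 0.01.

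Complete separation of treated from control rats was found for 5 members, all of them above control, which is 8.33% of members against 1.7% of all tested probes. The groups did not overlap in the lower direction for 0 members, against 0.705% of all tested probes. The 5 members were Mrpl42, Mrpl23, Mrpl51, Mrpl22 and Mrps18c. Since members share the 8 arrays, these counts are not independent observations.

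Start-site windows of members were read for motifs of the factors NRF1, GABPA and YY1, which are known to act at many nuclear genes of mitochondrial proteins. RefSeq windows of the GRCr8 build, 250 bases before to 50 bases after each start, were matched by gene identifier for 51 of the 62 members, with 52 windows since Mrpl14 has 2. No window was matched for Mrpl13, Mrpl15, Mrpl16, Mrpl19, Mrpl21, Mrpl35, Mrpl43, Mrps12, Mrps24, Mrps34 and Mrps35. The NRF1 core TGCGCA, which reads the same on both strands, was found in 26.9% of member windows and 7.24% of all 33469 windows. The GABPA motif CCGGAAG on either strand was found in 30.8% against 8.75%, and the YY1 motif AAGATGG on either strand in 28.9% against 7.01%. At least 1 of the 3 was found in 60.6% of 33 Mrpl windows and 68.4% of 19 Mrps windows, against 20.6% of all windows. The set of all windows was not limited to genes detected here and was not matched to members in base composition. These matches describe letters and show no binding.

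The windows of the 4 members with the smallest p are printed 5′ to 3′ on the strand of the gene, with motif matches in capitals. Mrpl42 lies at chr7:32028473-32028772 on the minus strand, Mrps18c at chr14:9122857-9123156 on the minus strand, Mrpl18 at chr1:50384702-50385001 on the plus strand and Mrpl49 at chr1:212779278-212779577 on the minus strand, all in GRCr8. They set the member with the outlying values, Mrpl18, beside 3 with small positive differences.
Mrpl42: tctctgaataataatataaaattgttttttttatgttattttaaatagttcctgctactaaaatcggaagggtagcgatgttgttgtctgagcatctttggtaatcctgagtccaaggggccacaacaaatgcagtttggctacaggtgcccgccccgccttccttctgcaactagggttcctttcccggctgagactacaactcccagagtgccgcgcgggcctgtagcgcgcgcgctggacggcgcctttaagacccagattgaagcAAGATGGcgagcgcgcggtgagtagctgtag
Mrps18c: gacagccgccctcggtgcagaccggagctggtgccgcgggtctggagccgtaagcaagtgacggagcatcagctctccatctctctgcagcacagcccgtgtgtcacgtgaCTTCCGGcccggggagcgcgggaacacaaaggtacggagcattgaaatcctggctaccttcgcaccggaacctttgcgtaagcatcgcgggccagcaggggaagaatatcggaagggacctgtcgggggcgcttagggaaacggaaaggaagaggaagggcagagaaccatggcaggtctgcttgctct
Mrpl18: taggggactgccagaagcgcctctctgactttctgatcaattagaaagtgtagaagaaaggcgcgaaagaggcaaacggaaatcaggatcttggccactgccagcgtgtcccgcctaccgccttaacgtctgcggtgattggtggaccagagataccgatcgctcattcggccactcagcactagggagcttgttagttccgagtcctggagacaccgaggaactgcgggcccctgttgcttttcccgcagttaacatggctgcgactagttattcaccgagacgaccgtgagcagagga
Mrpl49: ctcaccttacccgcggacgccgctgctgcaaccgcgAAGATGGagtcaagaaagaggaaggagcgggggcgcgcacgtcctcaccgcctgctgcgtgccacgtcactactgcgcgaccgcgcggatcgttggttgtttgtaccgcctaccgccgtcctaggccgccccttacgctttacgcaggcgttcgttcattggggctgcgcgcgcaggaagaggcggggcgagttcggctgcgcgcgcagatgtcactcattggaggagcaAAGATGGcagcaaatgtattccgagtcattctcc
Mrpl42 holds 1 YY1 match that begins at base 20 after the start. Mrpl49 holds 2 YY1 matches, at base -214 and base 17, and Mrps18c holds 1 GABPA match on the opposite strand that begins at base -139. The Mrpl18 window holds 0 matches to the 3 motifs, and no capital overlaps between motifs in any of the 4 windows.

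Mrpl42, a large-subunit protein specific to mitochondria, had the smallest p of all members. Its control levels were 11.90, 11.58, 11.94 and 12.14 in replicates 1 to 4, and its treated levels were 12.17, 12.16, 12.27 and 12.50. Every treated rat lay above every control rat, although the margin between the nearest values was small. The means were 11.89 ± 0.23 (SD, n = 4) in control and 12.27 ± 0.16 in treated muscle. The difference was 0.38 (SE 0.14, 95% confidence interval 0.06 to 0.71), a 1.30-fold level, with an adjusted p of 0.9999 from limma.

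Mrps18c encodes 1 of the paralogs of bacterial ribosomal protein bS18 and belongs to the small subunit. Its levels were 10.43, 10.48, 10.32 and 10.44 in control and 10.72, 10.78, 10.52 and 10.64 in treated muscle. The groups were again fully separated, with the lowest treated value in replicate 3. The difference was 0.25 (SE 0.10, confidence interval 0.02 to 0.48). The other paralogs, Mrps18a and Mrps18b, differed by 0.19 (SE 0.13) and 0.10 (SE 0.12), and both groups overlapped for them.

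Proteins that line or surround the exit of the nascent chain are encoded by Mrpl22 and Mrpl23. Mrpl23 read 10.14, 10.30, 10.20 and 10.22 in control and 10.35, 10.45, 10.35 and 10.55 in treated muscle, a difference of 0.21 (SE 0.10). Mrpl22, named after its values were seen, read 10.81, 10.77, 10.71 and 10.80 in control and 10.99, 10.84 and 11.04 in treated replicates 2 to 4, with treated replicate 1 just above replicate 2. Its difference was 0.19 (SE 0.10), and treated replicate 3 lay closest to the controls. In both genes all treated rats were above all controls by a few hundredths at the narrowest point.

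Among other large-subunit members, Mrpl51 encodes a protein specific to mitochondria. It read 8.94, 8.60, 9.01 and 9.02 in control and 9.09, 9.12, 9.06 and 9.36 in treated muscle, a difference of 0.27 (SE 0.13). Control replicate 2 was low and treated replicate 4 high, and the remaining 6 values lay within 0.2 of each other. Mrpl49, also specific to mitochondria, read 9.16, 9.35, 9.08 and 9.41 against 9.59, 9.74, 9.35 and 9.45, a difference of 0.28 (SE 0.13), with overlapping groups. Mrpl19, a protein with a bacterial counterpart, read 8.75, 8.55, 8.72 and 8.89 against 9.07, 9.20, 8.78 and 8.97, a difference of 0.28 (SE 0.13). Treated replicate 3 lay within the control range for Mrpl19. Mrpl13, a conserved large-subunit protein, read 12.32, 12.01, 12.18 and 12.18 against 12.37, 12.53, 12.21 and 12.54, a difference of 0.24 (SE 0.12). Here too treated replicate 3 fell below the highest control.

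The other small-subunit members named for values above control had overlapping groups. Mrps34, a mitochondria-specific protein whose human gene is mutated in Leigh syndrome, read 9.12, 9.14, 9.29 and 9.24 in control and 9.33, 9.71, 9.47 and 9.29 in treated muscle, a difference of 0.25 (SE 0.12). Mrps12, the counterpart of the bacterial decoding-centre protein bound up with streptomycin resistance, read 11.52, 11.51, 11.27 and 11.47 against 11.51, 11.83, 11.65 and 11.67, a difference of 0.22 (SE 0.11). In each of these genes 1 treated rat lay inside the control range. Mrps26 read 8.14, 8.27, 8.43 and 8.46 against 8.48, 8.48, 8.40 and 8.94, a difference of 0.25 (SE 0.14) that was 0.13 without treated replicate 4. Mrps11, a conserved platform protein, read 10.75, 10.37, 10.62 and 10.62 against 10.71, 10.82, 10.67 and 10.96, a difference of 0.20 (SE 0.12). Mrps25, specific to mitochondria, read 9.06, 9.34, 9.10 and 9.35 against 9.46, 9.24, 9.29 and 9.68, a difference of 0.21 (SE 0.14), or 0.12 without treated replicate 4. Treated replicate 4 held the highest value in all of these last 3 genes.

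**Figure D3:**
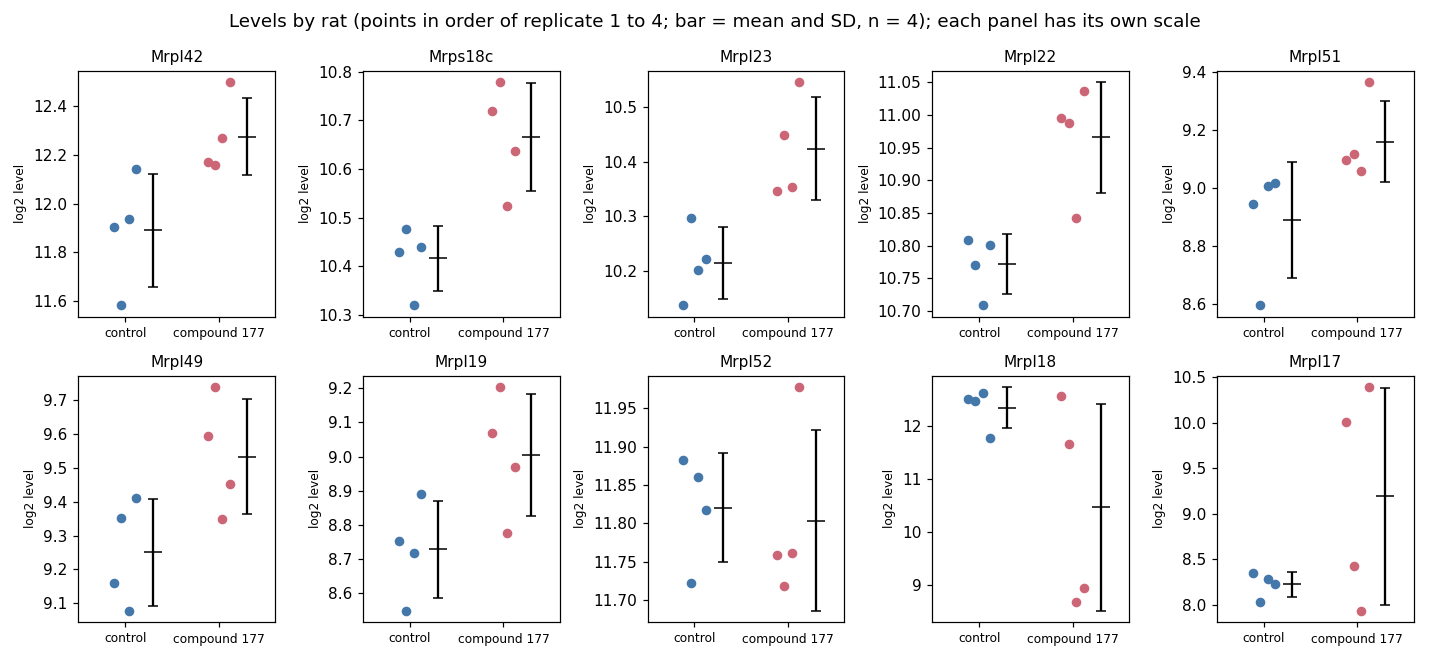
Log2 level of 10 members in every rat, control in blue and compound 177 in red, points in the order of replicates 1 to 4, with the mean and SD (n = 4) beside them and a separate vertical scale per panel. Groups are separated for Mrpl42, Mrps18c, Mrpl23, Mrpl22 and Mrpl51, whereas for Mrpl18 and Mrpl17 a pair of treated rats stands apart from the other 6 rats.

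Members below control were few and, besides Mrpl18, close to 0. Mrpl52, a mitochondria-specific large-subunit protein, read 11.88, 11.72, 11.86 and 11.82 in control and 11.76, 11.72, 11.76 and 11.98 in treated muscle, a difference of -0.02 (SE 0.11). Mrps30 read 11.64, 11.77, 12.03 and 12.02 against 11.64, 11.90, 11.80 and 11.87, a difference of -0.06 (SE 0.13). Mrps14, a conserved small-subunit protein, read 11.03, 10.92, 11.10 and 11.08 in control and 10.88, 11.25 and 10.78 in treated replicates 1, 2 and 4, with treated replicate 3 between them, a difference of -0.05 (SE 0.13). The sign of each of these depended on the setting, and none can be placed above or below control. Mrps10, another conserved small-subunit protein, differed by -0.08 (SE 0.28) and divided by set instead of by diet. It read 8.71, 9.20, 8.82 and 8.78 in the 4 arrays of set 1, listed control first, and 8.04, 8.15, 8.09 and 8.10 in the 4 arrays of set 2.

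Mrpl18 stood apart from every other member. Its protein lies in the central protuberance of the large subunit, at the tRNA that mammalian mitochondrial ribosomes carry there, and it has been linked to the import of 5S ribosomal RNA. Levels were 12.52, 12.48, 12.62 and 11.77 in control rats and 12.57, 11.67, 8.68 and 8.94 in treated rats. Treated replicate 1 lay within the control range and replicate 2 just below it, whereas replicates 3 and 4 lay far below all other rats. The deposited intensities before any normalization showed the same split, at 8393, 2732, 469 and 518 in the treated arrays and 7114, 4482, 6134 and 3333 in the control arrays, and the probe was detected on all 8 arrays.

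The mean of Mrpl18 was 12.35 ± 0.39 (SD, n = 4) in control and 10.47 ± 1.95 in treated muscle. The difference was -1.88 (SE 0.80, confidence interval -3.68 to -0.09), a level 3.69-fold lower, with an adjusted p of 0.9999 from limma. It was -0.38 within set 1, where the level was 1.30-fold lower, and -3.39 within set 2, where it was 10.5-fold lower. The test of the difference between the sets, an interaction term in limma, gave -3.01 for Mrpl18 with an unadjusted p of 0.000425 and an adjusted p of 0.9996. Without treated replicate 3 the difference was -1.29, and without treated replicate 1 it was -2.59. Both diets are in each set, and the control rats of set 2, at 12.62 and 11.77, lay on either side of those of set 1, at 12.52 and 12.48. Since Mrpl18 lies within the group mean of its subunit, the mean over both subunits without it is given below.

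The 5 named probes of other genes whose levels over the 8 arrays correlated most with Mrpl18 were Adgrb2, Zfr, Setsip, Sod2 and Cul3, with Pearson r of 0.94, 0.93, 0.90, 0.89 and 0.89. Over these 8 arrays Mrpl18 itself lay far lower in treated replicates 3 and 4 than in the rest. The r of these 5 probes are the largest among the named probes tested, and they are given as a description. Their Spearman rho was 0.74, 0.95, 0.69, 0.74 and 0.88 in the same order. Adgrb2, an adhesion receptor, read 10.02, 8.94, 9.77 and 7.90 in control and 8.24, 8.25, 5.60 and 5.15 in treated rats, and on 1 treated array it was not detected. Adgrb2 and Mrpl18 were the 2 probes of 10212 in which treated replicates 3 and 4 both lay more than 2 below every other array, and 0 probes showed the mirror image. This rule was drawn from the pattern of Mrpl18, so the place of Mrpl18 among them was fixed in advance. Sod2, the mitochondrial superoxide dismutase, read 11.70, 11.89 and 11.92 in control replicates 1, 2 and 4 and higher in replicate 3, 11.91 and 11.84 in treated replicates 1 and 2, and 11.49 and 11.48 in treated replicates 3 and 4. In the reference annotation Sod2 is the fifth protein-coding gene to one side of Mrpl18.

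The neighbours of Mrpl18 were examined after its values were seen. Of the 10 protein-coding genes on either side, Sod2, Wtap, Acat2, Tcp1, Igf2r, Slc22a3 and Map3k4 were tested. Tcp1, a subunit of the cytosolic chaperonin, is the immediate neighbour and is read from the opposite strand, and the start windows of Tcp1 and Mrpl18 share 76 bases. Tcp1 read 12.52 to 12.64 in control and 12.79, 12.73, 12.62 and 12.53 in treated rats, so the gap seen in Mrpl18 was not present in its partner. The differences of Wtap, Acat2, Igf2r, Slc22a3 and Map3k4 ran from -0.13 to 0.17, and none of the 7 neighbours passed the test (adjusted p 0.9999, limma).

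Mrpl17, a conserved protein near the exit side of the large subunit, showed high values in a pair of treated rats that shares treated replicate 4 with the low pair of Mrpl18. It was outside the naming rule and is named after its values were seen. It read 8.35, 8.03, 8.28 and 8.23 in control and 10.01, 8.42, 7.93 and 10.39 in treated rats. Treated replicates 1 and 4 lay well above the other 6 rats, and treated replicate 3 lay below all controls. The difference was 0.97 (SE 0.49, confidence interval -0.13 to 2.06) at an adjusted p of 0.9999 from limma, with 1.02 in set 1 and 0.91 in set 2. Without treated replicate 4 it was 0.57. The deposited intensities of Mrpl17 were 1434 and 1326 in these 2 treated rats and 305 to 451 in the other 6.

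Member variation between rats of a group was otherwise modest. The median SD of an Mrpl member was 0.14 in control and 0.17 in treated rats, and that of an Mrps member 0.14 and 0.19, against 0.20 and 0.22 over all tested probes. An SD above 0.3 in either group was found for 6 Mrpl and 3 Mrps members. Residuals from the group means correlated at a median of 0.31 between pairs of Mrpl members and 0.13 between pairs of Mrps members, over 8 arrays that all members share.

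Within set 1 alone 31 of 38 Mrpl and 20 of 22 Mrps members were above control, against 52.7% of all tested probes. Within set 2 alone the counts were 31 and 18, against 53% of all tested probes. The medians were 0.17 and 0.17 in set 1 and 0.15 and 0.12 in set 2. In total 25 Mrpl and 16 Mrps members were above control in both sets. An unadjusted p below 0.05 for the difference between sets was found for 2 members, Mrpl18 and Mrpl41, or 3.33% against 3.96% of all tested probes, and 0 passed after adjustment by limma. Mrpl41, outside the naming rule, differed by -0.22 in set 1 and 0.47 in set 2.

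**Figure D4:**
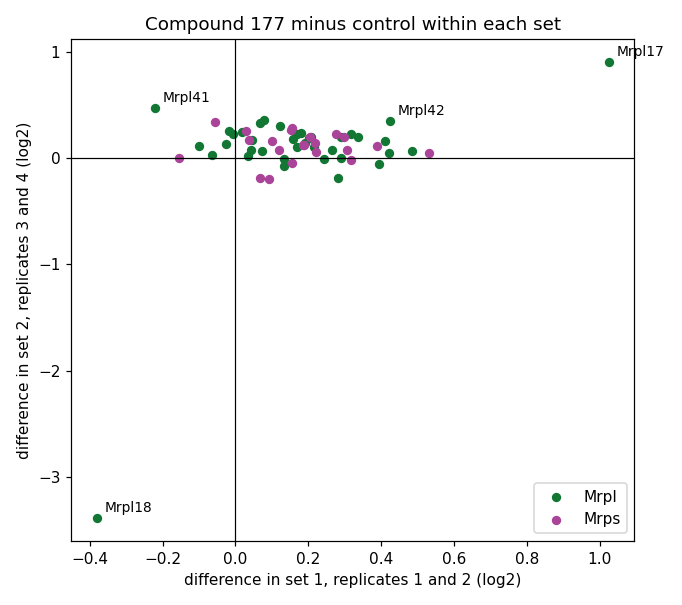
Difference of each tested member in log2 units within set 1 (horizontal axis, replicates 1 and 2) and within set 2 (vertical axis, replicates 3 and 4), 2 rats per group in each set, with different scales on the 2 axes. In the upper right, above control in both sets, lie 25 of 38 Mrpl and 16 of 22 Mrps members. Mrpl18 lies at -0.38 and -3.39, and Mrpl17 at 1.02 and 0.91.

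The mean level of the members varied from rat to rat, and the groups overlapped. The mean deviation of the Mrpl members from their own averages was -0.05, -0.16, -0.05 and 0.01 in control replicates 1 to 4 and 0.04, 0.10, -0.08 and 0.18 in treated replicates 1 to 4. For the Mrps members it was -0.08, -0.09, -0.11 and -0.01 against 0.03, 0.16, -0.05 and 0.15. Treated replicates 2 and 4 were highest in both subunits, while treated replicate 3 lay among the controls. The Mrpl value of treated replicate 3 includes the low Mrpl18. Without Mrpl18 the mean over both subunits was -0.02 in that rat. It was -0.08, -0.15, -0.09 and -7.3e-05 in control replicates 1 to 4. The mean over both subunits without Mrpl18 was -0.08 ± 0.06 (SD, n = 4) in control and 0.08 ± 0.11 in treated rats, and no p is given because the members were chosen with results known. Without treated replicate 4 the median of the Mrpl members was 0.10 in place of 0.16, and that of the Mrps members 0.11 in place of 0.15.

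Markers of other cells differed between the same rats. For fibroblast and tendon markers 14 of 15 were tested and 0 of 14 were above control, with a median of -0.73. An unadjusted p below 0.05 was found for 1 of these 14 markers, or 7.14%, against 1.62% of all tested probes in the lower direction. With the replicate block it was found for 9 of the 14, against 294 of all 10212 tested probes in that direction. After adjustment by limma 0 passed. Their mean deviation was 0.62, 0.74, 0.53 and -0.37 in control replicates 1 to 4 and 0.76, -1.13, 0.18 and -1.32 in treated replicates 1 to 4. The treated rats with the highest ribosomal protein means, replicates 2 and 4, thus had the lowest values for these markers, and control replicate 4 was the lowest control for the markers and the highest for both subunits. Treated replicate 1 had the highest marker value and a ribosomal mean above all controls. The summed linear signal of the list was 42644 to 88874 in control and 22855 to 88676 in treated muscle. Slow-fibre markers were tested for 12 of 15 genes, 0 of 12 above control, with a median of -1.02 and a summed signal of 39152 to 137213 in control and 33782 to 114035 in treated muscle. Their mean deviation was -0.69, 0.87, 0.56 and 1.19 in control and 0.77, -0.93, -1.02 and -0.74 in treated replicates 1 to 4. Control replicate 1 and treated replicates 2, 3 and 4 were thus low for slow-fibre markers, at Mrpl18 levels of 12.52, 11.67, 8.68 and 8.94. A relation between Mrpl18 and these markers was not tested. Macrophage markers were tested for 8 of 12 genes, 0 of 8 above control (median -0.32), nerve and Schwann cell markers for 5 of 9, 0 of 5 above (median -0.36), and adipocyte markers for 6 of 9, 2 of 6 above (median -0.42). Blood markers were tested for 3 of 6 genes, 1 of 3 above (median -0.28), and endothelial markers for 7 of 11, 4 of 7 above (median 0.04). The part of these markers in the ribosomal protein differences was not tested.

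**Figure D5:**
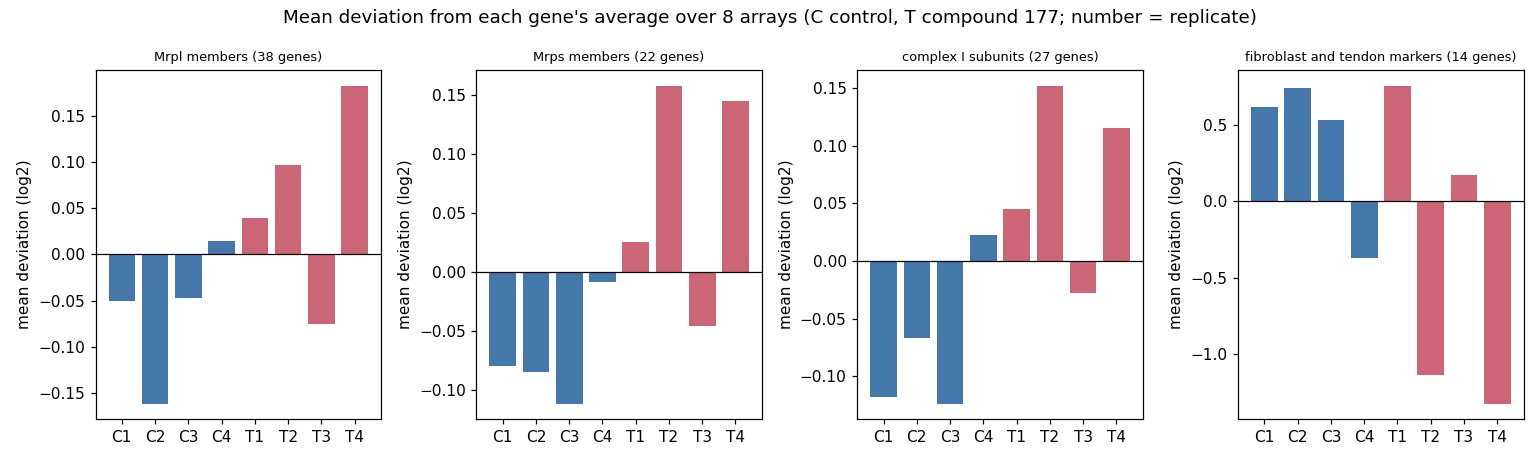
Mean deviation in log2 units from each gene's average over the 8 arrays, one bar per rat (C control, T compound 177, numbered by replicate), for Mrpl members, Mrps members, complex I subunits and fibroblast and tendon markers, each panel with its own scale. Treated replicates 2 and 4 have the highest bars for Mrps members and complex I and the lowest for the markers. The Mrpl bars include Mrpl18, which was far below its average in treated replicates 3 and 4.

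Related gene groups give the scale of these values. Of 27 tested complex I subunits, which feed electrons from NADH into the respiratory chain, 25 were above control with a median of 0.17, and their mean deviations were highest in treated replicates 2 and 4 as well. Of 56 tested cytosolic ribosomal proteins 33 were above control, with a median of 0.03. Complete separation above control was found for 5 complex I subunits, or 18.5%, and for 0 cytosolic ribosomal proteins. The share was 8.33% of the mitochondrial ribosomal members and 1.7% of all tested probes. A difference between these groups and the mitochondrial ribosome was not tested.

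The other genes of mitochondrial translation were taken from fixed lists, and 0 of their genes passed the test (limma, adjusted p 0.9999 for each gene named here). Mitoribosomal proteins known under other symbols, with the insertase Oxa1l and the acyl carrier Ndufab1 added, were tested for 6 of 8 genes. Of these 4 of 6 were above control, with a median of 0.08. Chchd1 and Aurkaip1, both small-subunit proteins, differed by 0.19 (SE 0.11) and 0.21 (SE 0.12), and Dap3, a GTP-binding small-subunit protein, by -0.06 (SE 0.13). Ptcd3, also of the small subunit, differed by 0.10 (SE 0.13), Ndufab1 by 0.07 (SE 0.12) and Gadd45gip1, of the large subunit, by -0.02 (SE 0.12).

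For mitochondrial translation factors 7 of 9 tested genes were above control with a median of 0.08. Mtfmt, which formylates the initiator methionyl-tRNA, read 8.03, 8.23, 8.41 and 8.34 in control and 8.28, 8.54, 8.57 and 8.54 in treated rats, a difference of 0.23 (SE 0.12). The elongation factor Tufm read 12.60, 12.51, 12.65 and 12.54 against 12.64, 12.92, 12.59 and 12.71, a difference of 0.14 (SE 0.11). The groups overlapped for both. For mitochondrial aminoacyl-tRNA synthetases 8 of 12 were above control with a median of 0.03. That list also held Gatc, which is not a synthetase, and Gars1 and Kars1, which also serve the cytosol. They differed by -0.09, -0.02 and -0.004. Rars2, the arginyl-tRNA synthetase, read 7.40, 7.04, 7.27 and 7.72 against 7.48, 7.91, 7.73 and 7.66, a difference of 0.34 (SE 0.16). Aars2, the alanyl-tRNA synthetase, read 5.31, 5.51, 5.49 and 5.61 against 5.76, 5.45, 5.73 and 5.91, a difference of 0.24 (SE 0.13). Here too the groups overlapped. Aars2 lay near background, with a detection p below 0.05 on 3 arrays in each group. Its difference was 0.10 without background correction.

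Assembly factors of the mitochondrial ribosome lay above control in 15 of 19 tested genes, with a median of 0.16. An unadjusted p below 0.05 was found above control for 3 of them, or 15.8% of the list against 2.26% of all tested probes. With the replicate block there were 5, or 26.3% against 3.55%, and 0 passed after adjustment by limma (smallest adjusted p 0.745). Nsun4, a methyltransferase of the small ribosomal RNA that also joins the subunits together, read 7.79, 7.95, 7.95 and 8.17 in control and 8.11, 8.44, 8.60 and 8.41 in treated rats. Its difference was 0.43 (SE 0.14), with 1 treated rat inside the control range. Rpusd4, a pseudouridine synthase of the large ribosomal RNA, read 8.64, 8.66, 8.26 and 8.49 in control and 8.64, 8.89 and 8.94 in treated replicates 1, 3 and 4, with treated replicate 2 slightly higher, a difference of 0.35 (SE 0.13). Tfb1m, the dimethyltransferase of the small ribosomal RNA and named after its values were seen, read 6.01, 5.60, 6.03 and 6.01 against 6.07, 6.19, 6.49 and 6.44, a difference of 0.38 (SE 0.15). The difference of Tfb1m was 0.17 without background correction. Groups were separated for Tfb1m alone among these 3 genes. The median of the assembly list was 0.24 in set 1 and 0.06 in set 2. Genes of mitochondrial transcription and its regulators were above control in 11 of 16, with a median of 0.04. That list also held Polg, Polg2, Twnk and Ssbp1, which are genes of mitochondrial DNA replication. Tefm, the mitochondrial transcription elongation factor, read 8.83, 8.98, 8.73 and 8.85 in control and 8.95, 9.18, 9.29 and 9.10 in treated rats, a difference of 0.28 (SE 0.11). Mterf2, of the mitochondrial transcription termination factor family, read 7.82, 7.87, 7.95 and 7.99 against 7.89, 8.31, 8.19 and 8.21, a difference of 0.24 (SE 0.12). In each of these genes 1 treated rat lay inside the control range. Of the regulators, the coactivator Ppargc1a differed by 0.23 (SE 0.24), although its set 1 value was 0.76 and its set 2 value -0.29, the ETS factor Gabpa by -0.02 (SE 0.20) and Yy1 by -0.19 (SE 0.16).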

How the data were processed

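The deposited non-normalized table holds linear intensity values per probe and array, with no normalization between arrays per the file headers, and beside each the authors deposited a detection p-value. The authors' normalized table holds linear intensity values and served as an alternative; the series' value table repeats it (largest difference 0). Its 8 detection p columns were not used. No source used here names the scanner software or a background step.

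The neqc function (limma 3.58.1, R 4.3.3) corrected intensities for a background inferred from detection p-values, added 16 and quantile-normalized them on the log2 scale. Probes entered the test when 4 or more arrays had a detection p under 0.05. Groups were compared with lmFit and eBayes over 10212 probes, without covariates, with Benjamini-Hochberg adjustment. The fit was tested on simulated data. Symbols came from the platform annotation (13793 probes with 1 symbol, 0 with several, 8730 with none), updated by gene identifier through RefSeq, which held all 62 members. Gene lists took the brightest probe of a gene.

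Members and lists were chosen with earlier results of these data known, so lists are described by counts and medians with no test. By the naming rule, values are given for the 6 members with the smallest p above control and the 3 below in each subunit, any with a difference over 1 and the 2 smallest p of each pathway list. The labels give both groups replicate numbers 1 to 4. Residuals of same-numbered arrays correlated at 0.24, 0.47, 0.12 and 0.43, all above 0.1. On this ground alone the number was used as a block in an alternative fit, and the reported fit left it out. Same-numbered arrays also lie in the same set, and differently numbered arrays were not compared, so these values cannot show pairing. Array weights were lowest for the arrays numbered 2 (0.572 and 0.541), which also had the fewest detected probes.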

Additional observations from a re-analysis of the deposited data

Results flagged for a closer look

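Among 66 groups of 4 rats examined for a value far from the other 3, 6 were found, and chance gives about 1 in 20. Control replicate 2 read 8.60 for Mrpl51, where the other controls read 8.94 to 9.02. Control replicate 4 read 11.77 for Mrpl18 against 12.48 to 12.62. Treated replicate 4 read 11.98 for Mrpl52 against 11.72 to 11.76, and 8.94 for Mrps26 against 8.40 to 8.48. Control replicate 2 read 5.60 for Tfb1m against 6.01 to 6.03, and treated replicate 1 read 8.28 for Mtfmt against 8.54 to 8.57. The low pair of treated rats for Mrpl18 and the high pair for Mrpl17 are not single distant values and were not found in this way.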

How the results depend on the processing

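Under 20 alternatives, 0 probes passed an adjusted p below 0.05. The median difference ran from 0.10 to 0.20 for Mrpl and from 0.11 to 0.20 for Mrps members, with 31 to 37 and 18 to 20 members above control. With 1 array left out these medians were 0.10 to 0.20 and 0.11 to 0.20, and 48 of the 55 members above control stayed above in all 8 such runs. The number of probes at an unadjusted p below 0.05, 396 in the reported fit, was 126 with median scaling, 954 without a filter on dim probes (22523 probes tested), 657 with the replicate number as a block, and 260 to 559 with 1 array left out, the lowest without control replicate 3. With the block 0 probes passed after adjustment. At an unadjusted p below 0.05 it changed the count from 2 to 4 for members above control, from 3 to 5 for assembly factors, and from 1 to 9 for fibroblast and tendon markers. Of 619 values for the 31 named genes, 605 kept their direction and 0 passed after adjustment. The exceptions were genes whose reported difference was smaller than its standard error, and some alternative values were larger in size than that difference. Mrpl52 was 0.0594 with median scaling, 0.0302 in set 2 and -0.0745 to 0.0118 with 1 array left out. Mrps10 was 0.0037 in set 2, 0.0389 without replicate 2 of both groups (chosen after seeing the data) and -0.24 to 0.15 with 1 array left out. Mrps14 was 0.0930 in set 1 and -0.14 to 0.0130 with 1 array left out, Mrps30 was 0.0129 with median scaling and 0.0674 in set 1, and Mrpl41 was -0.22 in set 1. The cause was not tested. Averaging several probes of a gene was not run, since each member has 1 probe.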
